A study of Rattus norvegicus with 6 samples.

Results

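Cytochrome P450 genes were compared in brain RNA between the SPORTS rat, a hyperactive mutant line, and wild type rats. The members were every gene on the array whose symbol is Cyp followed by a number, a letter and a number. Cyp51 and Cyp27a1, whose substrates are sterols of cholesterol metabolism, were left out by name, and the compound symbols Cyp2c6v1 and Cyp3a23-3a1 fell outside the pattern. That gave 64 genes with 75 probes, of 15168 named genes and 30367 probes on the array. The family was selected because 1 member, Cyp2c11, was already known to differ between SPORTS and wild type in these arrays, so its values are given as a description without a test. All other members were taken by name, whatever their values.

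The groups were 3 SPORTS rats and 3 wild type rats, all male, sedentary, 15 weeks old and of Wistar background. Total RNA of the brain was hybridised to 1 single-colour Agilent array per rat, and which region of the brain was taken is not stated in the labels. The labels name neither the mutated gene nor any treatment.

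P450 enzymes are haem proteins that insert an oxygen atom from molecular oxygen into a substrate, with electrons passed on by cytochrome P450 reductase in the endoplasmic reticulum and by ferredoxin in mitochondria. Families 1 to 3 oxidise drugs and, in several members, arachidonic acid. Family 4 hydroxylates the ends of fatty acids and eicosanoids, and the remaining members have narrow tasks in steroid, retinoid, vitamin D and oxysterol metabolism. In brain, P450 transcripts are generally scarcer than in liver, and individual members are known from astrocytes, vessels and neurons.

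Levels are given as normalised log2 signal, on which 0 is the 75th percentile of an array, and differences as SPORTS minus wild type on the same scale. Of the 64 genes, 26 had a probe well above background on all 6 arrays, 9 only on 1 to 5 arrays and 29 on none. A probe was tested if it was well above background on every array of at least 1 group, which left 32 probes for 29 genes, and a gene with several tested probes is represented by its brightest. A probe that passed only through the group in which it is brighter is bound to lean toward that group. Among the members this applies to Cyp2b3, Cyp2c11 and Cyp3a62, and among the called cell type markers to Serpina1, Lum and Drd1. Counts over the tested genes therefore say nothing about the members that were not tested.

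Of the 28 tested P450 genes other than Cyp2c11, 6 were higher in SPORTS, 6 were lower and 16 did not pass an adjusted p of 0.05 (limma, Benjamini-Hochberg over all tested probes). Over all 11033 tested genes, 12.9% were called higher and 11.4% lower. The median difference of these 28 genes was 0.08, against 0.01 over all genes, and their range ran from -0.73 to 1.43. Cyp2b3, at 1.43, passed the filter only through SPORTS. Among the 26 genes with a probe above background on all 6 arrays, refitted with other genes held to the same filter, 5 were higher and 6 were lower, beside 13.3% and 11.7% of all genes. Leaving out SPORTS 1 reduced the 6 higher calls to 3, and the share of all genes called higher to 8.08%.

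The arrays lay in 2 slide rows, with wild type 1 and 2 in row 1 and wild type 3 and all SPORTS arrays in row 2. When slide row was added as a block, the comparison rested on wild type 3 as the only wild type array in a shared row. In that fit, Cyp2c11 apart, 1 P450 gene was higher (Cyp2t1) and 3 were lower (Cyp4f17, Cyp11b2 and Cyp11b3), beside 4.03% and 4.31% of all genes. Of the 12 called P450 genes other than Cyp2c11, 4 kept the call under every alternative run: Cyp2t1, Cyp4f17, Cyp11b2 and Cyp11b3.

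**Figure D1:**
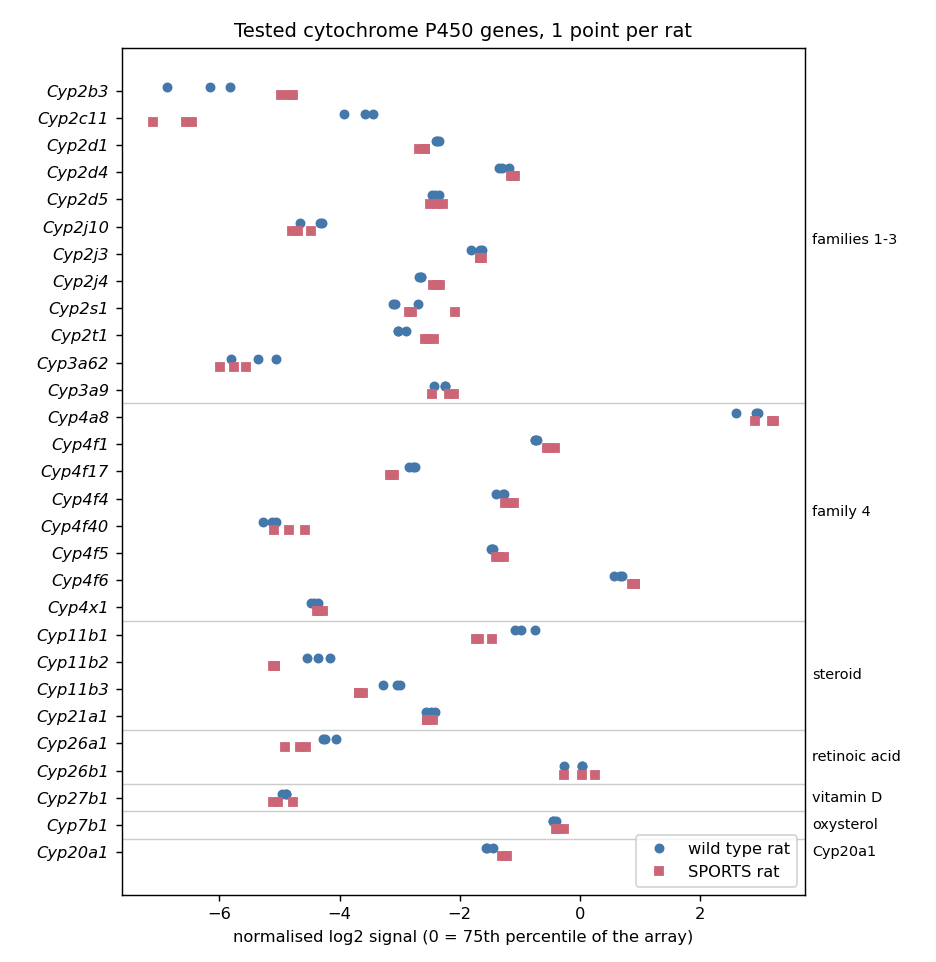
Normalised log2 signal of the 29 tested P450 genes on the x axis, grouped by role, with 1 circle per wild type rat and 1 square per SPORTS rat. Circles and squares of Cyp2c11 stand far apart (wild type mean -3.65, SPORTS mean -6.70), those of the 3 Cyp11b genes are separated by a smaller gap, and those of Cyp26b1 and Cyp21a1 overlap.

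Series-wide measures touch all of these results. Between 20323 and 23261 probes per array were well above background, no spot was saturated, and arrays correlated at 0.995 to 0.997 within groups and 0.987 to 0.991 between them. Markers of neurons, astrocytes and oligodendrocytes were well above background, as the tissue label requires. All 6 striatal markers were lower in SPORTS: their mean level lay between 0.64 and 0.83 on the wild type arrays and between -1.82 and -1.46 on the SPORTS arrays. Drd1 among them passed the filter through wild type alone. Of 10 fibroblast and meningeal markers, 6 were higher and 1 was lower, with mean levels of -0.55 to -0.39 and -0.09 to 0.16. Lum, 1 of the 6, passed the filter through SPORTS alone. Of 7 astrocyte markers, 4 were higher, with mean levels of 2.24 to 2.34 and 2.53 to 2.59. Beside these marker counts, 12.9% of all tested genes were called higher and 11.4% lower. SPORTS 1 stood apart in its cerebellar markers, with a mean level of -1.07 where the wild type arrays lay between -3.20 and -3.03. It was also lowest in choroid plexus markers, at -1.95 against -1.04 to -0.97 on the wild type arrays. The labels do not state the brain region. In bulk tissue, fewer cells of a type, less RNA per cell and a difference in the piece of tissue taken cannot be told apart. The part of these markers in the P450 differences was not tested.

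Cyp2c11, the male-specific P450 of rat liver, which hydroxylates testosterone and makes epoxides of arachidonic acid, showed the widest difference of the family. Its probe (transcript NM_019184) read -3.93, -3.58 and -3.44 in wild type and -6.45, -7.11 and -6.55 in SPORTS. The groups did not overlap. The signal was well above background on 3 wild type arrays and on 0 SPORTS arrays. The means were -3.65 ± 0.25 and -6.70 ± 0.35 (SD, n = 3 each), a difference of -3.05 with an SE of 0.21. Because the SPORTS signal was not well above background, the fold is a bound: Cyp2c11 was at least 6.04-fold lower in SPORTS. Such a bound sets the mean of the measured group against the lowest signal that is well above background on each array, or the dim signal itself where that is higher. With normexp background correction the difference was -1.14.

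The other Cyp2c genes on the array lay at background. Cyp2c7, with 3 probes, and Cyp2c12, Cyp2c13, Cyp2c22 and Cyp2c23 were well above background on no array of either group. A difference in those genes was not measurable here. Markers of hepatocytes, the main source of Cyp2c11 in the rat, were read on the same arrays. Of 13 hepatocyte markers, 7 were well above background on no array (Ahsg, Apoh, Fga, Fgb, Fgg, Hpx and Tat). The mean level of all 13 lay between -5.42 and -4.80 on the wild type arrays and between -5.15 and -4.84 on the SPORTS arrays. Ttr and Tf, at mean signals of 6.9 and 6, raise that mean, and the next brightest marker, Alb, lay at -4.37. Ttr is also among the choroid plexus markers, so it does not read hepatocytes alone. Of the 4 tested markers, Serpina1 (difference 1.16) and Tf (0.18) were higher in SPORTS, beside 12.9% of all genes called higher. Serpina1 was above background on 2 wild type and 3 SPORTS arrays. It passed the filter through SPORTS alone, so its size and test lean toward SPORTS. Alb differed by 0.61 (limma adjusted p = 0.483) and Ttr by -0.33 (0.466). Apoa1, well above background on 1 wild type and 0 SPORTS arrays, was not tested and was at least 1.27-fold lower in SPORTS. Neither Serpina1 nor Tf passed in the fit blocked by slide row (limma adjusted p = 0.0642 and 0.226), and Tf also failed without any single array other than wild type 3 (up to 0.0994). The part of these markers in the Cyp2c11 difference was not tested.

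The 250 bases before the annotated start of Cyp2c11 are shown because this gene has the widest difference of the family. They lie at chr1:246174966-246175215 of GRCr8 (RefSeq, plus strand), and capitals mark matches to TATAAA and CCAAT, searched on both strands.
Cyp2c11: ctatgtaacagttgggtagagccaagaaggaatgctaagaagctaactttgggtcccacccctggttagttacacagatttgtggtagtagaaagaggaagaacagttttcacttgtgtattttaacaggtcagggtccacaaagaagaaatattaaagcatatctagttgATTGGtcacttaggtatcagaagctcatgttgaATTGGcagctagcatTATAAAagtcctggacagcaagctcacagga
The TATAAA match lies 31 to 26 bases before the start. CCAAT is matched on the minus strand at 79 to 75 and 46 to 42 bases before it. TATAAA occurs in 13.1% and CCAAT in 34.3% of the 27457 promoters of this length.

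Cyp11b genes, which carry out the last steps of corticosterone and aldosterone synthesis in the adrenal cortex, were lower in SPORTS at all 3 members. Cyp11b1 makes corticosterone. Its probe read -0.74, -1.08 and -0.98 in wild type and -1.73, -1.47 and -1.68 in SPORTS, a difference of -0.69 ± 0.11 (SE), or 1.61-fold (limma adjusted p = 0.0102). Cyp11b2 makes aldosterone. Its probe read -4.16, -4.36 and -4.55 in wild type and -5.07, -5.08 and -5.11 in SPORTS, a difference of -0.73 ± 0.10 (limma adjusted p = 0.00627). Cyp11b3 is a closely related rat copy. Its brighter probe read -3.0, -3.27 and -3.05 in wild type and -3.67, -3.67 and -3.61 in SPORTS, a difference of -0.54 ± 0.08 (limma adjusted p = 0.00656). In each of the 3 genes every SPORTS rat lay below every wild type rat, but the share of all tested genes without overlap was not counted.

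A further Cyp11b3 probe was well above background on no array, with means of -7.46 in wild type and -7.01 in SPORTS. The Cyp11b transcripts are similar in sequence, so how much each probe reads of a neighbouring copy is uncertain. In the fit blocked by slide row, Cyp11b2 (adjusted p = 0.0388) and Cyp11b3 (0.0445) still passed in limma, while Cyp11b1 did not (difference -0.64, adjusted p = 0.0961).

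The other steroidogenic members gave no call. Cyp21a1, which acts just before Cyp11b1 in the adrenal pathway, read -2.56, -2.41 and -2.48 in wild type and -2.54, -2.54 and -2.45 in SPORTS. The groups overlapped, with a difference of -0.03 ± 0.05 (limma adjusted p = 0.78). Cyp11a1, which cleaves the side chain of cholesterol at the entry to the pathway, was well above background on no array. Cyp17a1, which makes androgen precursors, was well above background on 1 wild type and 1 SPORTS array and was not tested. Over the role, 3 of 4 tested genes were lower, with a median difference of -0.62, beside 11.4% of all genes called lower. These 3 are the Cyp11b genes, whose probes may not be separate readings.

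In RefSeq gene order, counting only genes with a probe on the array, the 3 Cyp11b genes are adjacent. Genes without a probe may lie between the genes named here. Of the 6 genes around them, looked up after these values were seen, 3 were tested and did not pass. Lynx1, on one side, differed by -0.14 (limma adjusted p = 0.127) and Ly6e, on the other, by -0.10 (0.1). Lypd2 differed by -0.04 (0.769). Slurp2 and Ly6d, the nearest array gene on the side of Cyp11b1, were well above background on no array. Ly6c was well above background on 0 wild type and 2 SPORTS arrays and at least 1.23-fold higher in SPORTS, with overlapping groups.

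**Figure D2:**
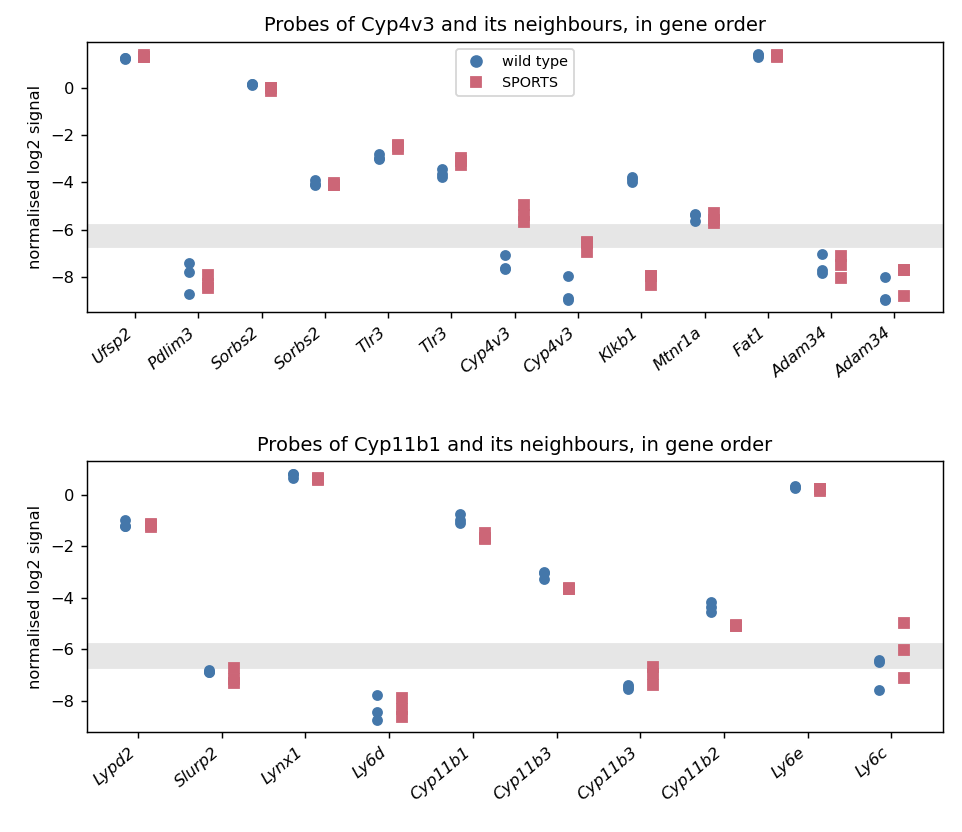
Normalised log2 signal (y axis) of the probes of Cyp4v3 (upper panel) and Cyp11b1 (lower panel) and of the array genes around them. Genes stand in gene order along the x axis, without those that have no probe. Circles are wild type and squares SPORTS rats. The grey band spans the lowest signal well above background on each array (-6.72 to -5.79). Klkb1 drops from a mean of -3.87 into the background beside Cyp4v3, whose SPORTS points lie above its wild type points, and the Cyp11b probes above background are lower in SPORTS.

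Retinoic acid is cleared by the Cyp26 enzymes. Cyp26a1, whose transcription retinoic acid itself induces, read -4.06, -4.24 and -4.27 in wild type and -4.66, -4.56 and -4.91 in SPORTS. All SPORTS rats lay below all wild type rats. The difference was -0.52 ± 0.11, or 1.44-fold (limma adjusted p = 0.0214). This call was close to the threshold: in limma the adjusted p was 0.05 after quantile normalisation, 0.0639 without the filter on dim probes, and 0.17 in the fit blocked by slide row. It was 0.06 without wild type 1, 0.0555 without wild type 2 and 0.0564 without SPORTS 1. Cyp26b1, the form better known from brain, read 0.03, 0.04 and -0.27 in wild type and 0.26, 0.03 and -0.27 in SPORTS. These groups overlapped throughout (difference 0.07 ± 0.16, limma adjusted p = 0.794).

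The 250 bases before the start of Cyp26a1 are shown because its known retinoic acid response element falls in them. They lie at chr1:244883572-244883821 of GRCr8 (RefSeq, plus strand), and capitals mark 2 copies of AGTTCA in direct repeat with any 5 bases between them, a form bound by retinoic acid receptors, searched on both strands.
Cyp26a1: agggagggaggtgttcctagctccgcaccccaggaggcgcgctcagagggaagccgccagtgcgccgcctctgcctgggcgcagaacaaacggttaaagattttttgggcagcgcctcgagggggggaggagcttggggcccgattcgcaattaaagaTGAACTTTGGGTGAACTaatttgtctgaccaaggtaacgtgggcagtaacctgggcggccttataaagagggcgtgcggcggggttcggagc
The match is on the minus strand, 92 to 76 bases before the start. Among the 27457 promoters of this length, 3 hold this exact repeat (0.0109%), those of Cyp26a1, Marco and LOC134485787.

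Of 10 other genes of retinoic acid synthesis and binding, 8 were tested, with a median difference of 0.20. In SPORTS 2 were higher and 1 was lower, beside 12.9% and 11.4% of all genes. Rdh10, which oxidises retinol to retinal, was lower by the widest margin: it read -2.58, -2.54 and -2.50 in wild type and -3.28, -3.45 and -3.27 in SPORTS (difference -0.79 ± 0.06, limma adjusted p = 0.00105). Crabp2, which carries retinoic acid to the nucleus, was higher by 0.76 ± 0.13 (0.0112 in limma). Aldh1a1, which makes retinoic acid from retinal, was higher by 0.49 (0.0208 in limma). Rdh10 passed in the fit blocked by slide row (0.014), and Crabp2 (0.0905) and Aldh1a1 (0.0988) did not. Aldh1a1 also failed without wild type 3 or any single SPORTS array, with adjusted p up to 0.0714.

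Family 4 had 14 genes, of which 11 were well above background on at least 1 array and 8 were tested. Of these 8, 2 were higher and 1 was lower, beside 12.9% and 11.4% of all genes, with a median difference of 0.20. The Cyp4f enzymes hydroxylate leukotrienes and fatty acids at the far end of the chain. Cyp4f6 read 0.56, 0.70 and 0.66 in wild type and 0.91, 0.92 and 0.86 in SPORTS (0.26 ± 0.05, limma adjusted p = 0.0161). Cyp4f1 read -0.74, -0.75 and -0.71 in wild type and -0.54, -0.49 and -0.41 in SPORTS (0.25 ± 0.04, limma adjusted p = 0.0135). Cyp4f17 moved the other way, from -2.84, -2.78 and -2.74 in wild type to -3.16, -3.10 and -3.13 in SPORTS (-0.35 ± 0.04, limma adjusted p = 0.00376). None of these 3 genes overlapped between the groups, and neither did Cyp4f4 and Cyp4f5, which did not pass. The share of all tested genes without overlap was not counted.

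Cyp4f17 passed in limma in the fit blocked by slide row (adjusted p = 0.0252), whereas Cyp4f1 (0.117) and Cyp4f6 (0.13) did not. Cyp4f6 also failed in limma without the filter on dim probes (0.0534), without SPORTS 1 (0.0555) and without SPORTS 2 (0.0615). Cyp4f4 and Cyp4f5 did not pass, at 0.15 (limma adjusted p = 0.106) and 0.13 (0.116), and Cyp4f40 differed by 0.31 (0.173).

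Cyp4a8, an arachidonic acid hydroxylase first described in kidney and prostate, lay above the 75th percentile of every array, at 2.96, 2.60 and 2.93 in wild type and 2.91, 3.23 and 3.20 in SPORTS. The groups overlapped, with a difference of 0.28 ± 0.13 (limma adjusted p = 0.189). Its other probe was well above background on no array (means -8.01 and -7.79), so the 2 probes of Cyp4a8 disagree on whether the transcript is present. Cyp4x1, a member known for its abundance in rodent brain, differed by 0.08 ± 0.05 (limma adjusted p = 0.259). Cyp4a1, Cyp4a2 and Cyp4a3, the fatty acid hydroxylases that fasting and fibrates induce in liver, were well above background on no array.

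**Figure D3:**
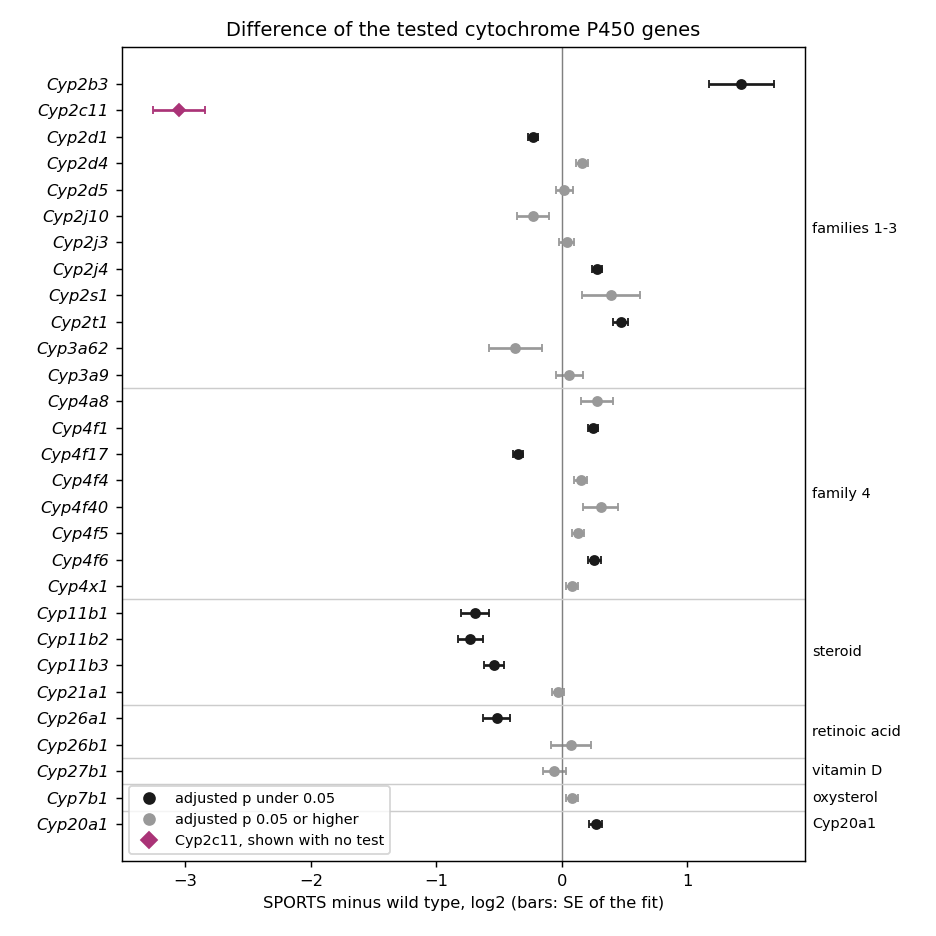
Difference of each of the 29 tested P450 genes between SPORTS and wild type (x axis, log2, bars are the SE of the fit), grouped by role. Dark points passed an adjusted p of 0.05 and grey points did not. The diamond is Cyp2c11 at -3.05, shown without a test, and Cyp2b3 at 1.43 lies farthest to the right with a wide bar.

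Within families 1 to 3, 14 of 34 genes were well above background on at least 1 array and 12 were tested. Of the 11 tested genes other than Cyp2c11, 3 were higher and 1 was lower, beside 12.9% and 11.4% of all genes. The higher genes were Cyp2j4, Cyp2t1 and Cyp2b3, and Cyp2b3 passed the filter through SPORTS alone. The median difference of the 11 genes was 0.06. The Cyp2j enzymes make epoxides of arachidonic acid. Cyp2j4 was higher at both of its probes. The brighter read -2.67, -2.65 and -2.64 in wild type and -2.37, -2.44 and -2.32 in SPORTS (0.28 ± 0.04, limma adjusted p = 0.00857). The dimmer read -4.14, -4.09 and -3.92 in wild type and -3.72, -3.64 and -3.79 in SPORTS (0.33 ± 0.07, limma adjusted p = 0.0241). Every SPORTS rat lay above every wild type rat at either probe. Cyp2j3 differed by 0.04 (limma adjusted p = 0.679) at one probe and 0.19 (0.0672) at the other, and Cyp2j10 by -0.23 (0.267). In the fit blocked by slide row the brighter Cyp2j4 probe gave a limma adjusted p of 0.0833.

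Cyp2t1, a little studied member, read -3.02, -3.02 and -2.89 in wild type and -2.43, -2.57 and -2.52 in SPORTS. The groups did not overlap, and the difference was 0.47 ± 0.06, or 1.38-fold (limma adjusted p = 0.00434). It passed in the fit blocked by slide row (0.0462 in limma).

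The Cyp2d enzymes oxidise many drugs that act on the brain. Cyp2d1 read -2.35, -2.37 and -2.40 in wild type and -2.57, -2.68 and -2.57 in SPORTS, with no overlap (-0.23 ± 0.04, limma adjusted p = 0.0168). It failed in limma in the blocked fit (0.137), with dim probes kept in (0.0553), without wild type 1 (0.0528) and without wild type 2 (0.0522). Cyp2d4, the form most often described in rat brain, read -1.34, -1.18 and -1.29 in wild type and -1.08, -1.15 and -1.10 in SPORTS. Its difference of 0.16 ± 0.05 did not pass (limma adjusted p = 0.0832), but did without wild type 2 (0.21, adjusted p = 0.0439). Cyp2d5 differed by 0.02 (limma adjusted p = 0.844), and Cyp2d2 and Cyp2d3 were well above background on no array. The Cyp2d probe sequences were not compared, and cross-reading between these similar genes is uncertain.

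Cyp2b3, a liver member of the phenobarbital-related subfamily, had the widest upward difference of a tested member. Its probe, with 1 spot per array, read -6.87, -5.83 and -6.15 in wild type and -4.77, -4.97 and -4.83 in SPORTS. It was well above background on 1 wild type array and 3 SPORTS arrays. The difference was 1.43 ± 0.26 (limma adjusted p = 0.0153). Both the size and the test lean toward SPORTS because the probe passed the filter through that group alone, so no fold is given. The other Cyp2b3 probe was dim on all arrays (means -7.08 and -6.78). The call was lost in limma in the fit blocked by slide row (1.29, adjusted p = 0.129), without SPORTS 1 (0.0537) and without SPORTS 3 (0.0542), and the difference was 0.48 with normexp background correction.

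The remaining tested members of these families did not pass. Cyp2s1, an extrahepatic member, differed by 0.39 (limma adjusted p = 0.299) at its brightest probe and by -0.33 (0.599) at another, so its probes disagree in sign. Cyp3a62, tested through its wild type signal, differed by -0.37 (0.274) and Cyp3a9 by 0.06 (0.766). Cyp1a1 and Cyp1a2, which aryl hydrocarbons induce, and Cyp2e1, which oxidises ethanol, were well above background on no array. The same held for Cyp2a1, Cyp2a2, Cyp2a3, Cyp2b12, Cyp2b15, Cyp2b21, Cyp2f4, Cyp2g1, Cyp3a2 and Cyp3a18. Cyp2b2 and Cyp4b1 reached that level on 1 array each, a wild type array in both cases.

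Cyp20a1, whose substrate is not settled, read -1.55, -1.57 and -1.44 in wild type and -1.23, -1.22 and -1.30 in SPORTS. The groups did not overlap (0.27 ± 0.05, limma adjusted p = 0.0156). It failed in limma in the blocked fit (0.119), with dim probes kept in (0.0517), without SPORTS 1 (0.0546) and without SPORTS 2 (0.0596). Cyp7b1, which hydroxylates oxysterols and neurosteroids in brain, differed by 0.08 ± 0.05 (limma adjusted p = 0.264). Cyp27b1, which activates vitamin D, differed by -0.06 ± 0.09 (limma adjusted p = 0.707). Cyp24a1 and Cyp2r1 of vitamin D metabolism, and Cyp7a1, Cyp8b1 and Cyp39a1 of bile acid synthesis, were well above background on no array.

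Among the P450 probes that were not tested, the widest differences were at Cyp4v3, the rat counterpart of the human fatty acid hydroxylase CYP4V2. Its brighter probe read -7.07, -7.65 and -7.62 in wild type and -5.37, -5.69 and -4.97 in SPORTS. It was well above background on 0 wild type and 2 SPORTS arrays. Cyp4v3 was at least 2.09-fold higher in SPORTS by this probe. The dimmer probe read -8.90, -8.97 and -7.98 in wild type and -6.55, -6.93 and -6.51 in SPORTS, and was well above background on no array, so no size or test is given for it. In a limma fit without the filter on dim probes, in which 4.06% of all probes were called higher, the brighter probe's adjusted p was 0.0146. Normexp background correction reduced its measured difference from 2.10 to 0.47.

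Among genes with a probe on the array, Cyp4v3 lies between Tlr3 and Klkb1 in RefSeq gene order. Genes without a probe may lie between them, and these neighbours were looked up after the values were seen. Klkb1, which encodes plasma prekallikrein, read -3.97, -3.88 and -3.76 in wild type and -8.34, -7.94 and -7.96 in SPORTS. It was well above background on 3 wild type and 0 SPORTS arrays and at least 5.21-fold lower in SPORTS. Its limma adjusted p was 6.23e-05, tested through its wild type signal alone. Over the alternatives its difference ranged from -4.32 to -1.26, so the bound belongs to the chosen processing. Tlr3, a receptor for double-stranded RNA, was higher in SPORTS at both of its probes, by 0.44 ± 0.07 (limma adjusted p = 0.00998) and 0.49 ± 0.11 (0.0299). Tlr3's brighter probe did not pass in the fit blocked by slide row (adjusted p = 0.0667 in limma). Farther out, Sorbs2 was lower at its brighter probe, by a difference of -0.20 ± 0.05 (limma adjusted p = 0.0398), and differed by -0.05 (0.676) at another. That call was lost in the fit blocked by slide row (limma adjusted p = 0.147). Pdlim3 and Adam34 were well above background on no array. Mtnr1a differed by -0.09 (limma adjusted p = 0.694), Fat1 by -0.03 (0.673) and Ufsp2 by 0.06 (0.3).

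**Figure D4:**
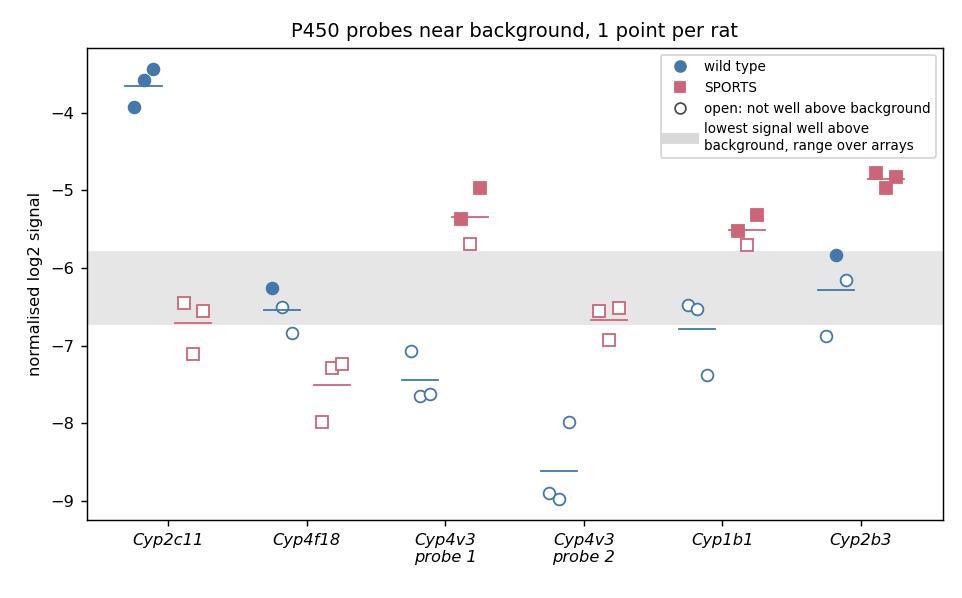
Normalised log2 signal (y axis) of 6 P450 probes near background, with 1 point per rat and a line at each group's mean. Filled points were well above background, open points were not, and the grey band spans the lowest signal well above background on each array (-6.72 to -5.79). Cyp4v3, Cyp1b1 and Cyp2b3 lie higher in SPORTS, and Cyp2c11 and Cyp4f18 lie lower.

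Cyp1b1, which hydroxylates oestradiol and is known from vessel walls and astrocytes, read -6.47, -6.52 and -7.38 in wild type and -5.52, -5.70 and -5.32 in SPORTS. It was well above background on 0 wild type and 2 SPORTS arrays, and at least 1.68-fold higher in SPORTS. Without the filter its limma adjusted p was 0.0647, and the measured difference of 1.28 ranged from 0.36 with normexp background correction to 1.87 in the fit blocked by slide row. Beside it, 1 of 8 mural cell markers was higher and 1 lower, and 1 of 8 endothelial markers was higher. These counts are near the 12.9% higher and 11.4% lower of all genes. The fibroblast and meningeal markers given above were mostly higher, and their part in the Cyp1b1 difference was not tested. Cyp4f18, a leukotriene hydroxylase of myeloid cells, read -6.26, -6.50 and -6.84 in wild type and -7.98, -7.29 and -7.24 in SPORTS (limma adjusted p = 0.105 without the filter). It was well above background on 1 wild type array and on no SPORTS array. The groups of either gene did not overlap. Cyp2c11 apart, that held for 5 of the 9 P450 probes above background on only some arrays, beside 15.6% of all such probes.

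The 250 bases before the start of Cyp1b1 are shown because its induction by the aryl hydrocarbon receptor is well known. They lie at chr6:21094315-21094564 of GRCr8 (RefSeq, plus strand), and capitals mark GCGTG, the core bound by that receptor, searched on both strands.
Cyp1b1: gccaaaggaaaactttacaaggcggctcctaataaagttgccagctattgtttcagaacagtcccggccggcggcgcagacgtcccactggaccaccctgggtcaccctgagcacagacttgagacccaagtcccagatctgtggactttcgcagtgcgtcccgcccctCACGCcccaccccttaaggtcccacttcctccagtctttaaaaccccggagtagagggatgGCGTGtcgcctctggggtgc
The core is matched on the plus strand at 20 to 16 and on the minus strand at 81 to 77 bases before the start, and it occurs in 27.2% of the 27457 promoters of this length. The receptor gene Ahr was well above background on 1 wild type and 0 SPORTS arrays, and its partner Arnt on 1 of each, so neither was tested.

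P450 enzymes depend on electron donors and haem. Of 14 tested genes of this kind 1 passed at its brightest probe, as higher, beside 12.9% of all genes called higher. Pgrmc1, not called at its brightest probe, was called lower at 1 of its 3 tested probes. Fech inserts iron into protoporphyrin to form haem. It read -1.81, -1.78 and -1.84 in wild type and -1.53, -1.56 and -1.55 in SPORTS (0.27 ± 0.03, limma adjusted p = 0.00482). It passed in the fit blocked by slide row (0.0348). Por, the reductase of the endoplasmic reticulum, differed by -0.08 ± 0.05 (limma adjusted p = 0.319). The mitochondrial donors Fdx1 and Fdxr differed by 0.05 (0.316) and 0.09 (0.14). The median of this list was 0.03.

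Of 28 receptors and regulators of P450 genes on the array, 20 were tested, with a median of -0.02. Of these, 3 were higher and 1 was lower, beside 12.9% and 11.4% of all genes. Arnt2, not called at its brightest probe, was called lower at 1 of its 2 tested probes. Rxrg, a retinoid X receptor that is enriched in striatum, read 0.80, 0.56 and 0.67 in wild type and -0.46, -0.41 and -0.49 in SPORTS (-1.13 ± 0.07, limma adjusted p = 0.00042). The 6 striatal markers fell in the same arrays, as given above, and their part in this difference was not tested. Stat5a and Ghr, of the growth hormone signal that sets Cyp2c11 in male liver, were higher by 0.32 (limma adjusted p = 0.0102) and 0.24 (0.0122). Ghr was called higher at 2 of its 3 tested probes. Stat5b, of the same signal, differed by -0.12 (limma adjusted p = 0.42). Nfe2l2, the oxidative stress regulator Nrf2, was higher by 0.28 (0.0111 in limma). Rxrg passed in the fit blocked by slide row (adjusted p = 0.00923 in limma), and Stat5a (0.0865), Ghr (0.112) and Nfe2l2 (0.107) did not. Hnf4a, a liver factor for many P450 genes, was well above background on no array.

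Enzymes that conjugate or hydrolyse P450 products had 18 tested genes, with a median of 0.15. Of these, 7 were higher and 1 was lower, beside 12.9% and 11.4% of all genes. Gsta4, which detoxifies lipid aldehydes, read 1.38, 1.49 and 1.5 in wild type and 1.99, 2.03 and 2.04 in SPORTS (0.56 ± 0.05, limma adjusted p = 0.00122). Aldh3a1 and Fmo1 were higher by 0.47 (limma adjusted p = 0.0321) and 0.43 (0.0275). The only lower gene, Ephx4, an epoxide hydrolase relative named after its values were seen, differed by -0.35 ± 0.04 (0.00271 in limma). Gsta4 and Ephx4 passed in the fit blocked by slide row (adjusted p = 0.0189 and 0.0346 in limma). Aldh3a1 failed with the block (0.0782) and without any single array (up to 0.0829), and Fmo1 with the block (0.0924) and without any single array other than wild type 1 (up to 0.0809).

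Other enzymes of steroid synthesis in brain had 9 tested genes, with a median of 0.03. Of these, 2 were higher and 1 was lower, beside 12.9% and 11.4% of all genes. Ch25h, which makes an oxysterol that Cyp7b1 breaks down, was higher by 0.87 ± 0.14 (limma adjusted p = 0.00976). Hsd17b4 was higher by 0.22 (0.0217 in limma). Hsd11b1, which regenerates corticosterone in tissues, was lower by a difference of -0.25 (0.0124 in limma). None of these 3 passed in the fit blocked by slide row (limma adjusted p = 0.0649, 0.175 and 0.101). Hsd11b1 also failed without SPORTS 2 (0.0502), and Hsd17b4 without any single array other than wild type 3 (up to 0.0648). Over the 5 partner lists 19 genes passed in either direction, beside 12.9% higher and 11.4% lower over all genes. Without SPORTS 2, 11 passed, where 894 higher and 678 lower of all 11033 genes did. In the fit blocked by slide row 6 passed, beside 4.03% and 4.31% of all genes.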

How the data were processed

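Brain RNA of 6 rats was measured on 1-colour Agilent arrays, 1 per rat. Per the file headers, Agilent Feature Extraction 10.10.1.1 made the deposited intensity values, subtracting background and detrending within each array. Other columns used are 0 or 1 flags of a spot (well above background, saturated, outlier). The deposited value table holds the same intensity on a linear scale, times 1 factor per array (1.38 to 1.47), and 0 columns of other samples.

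Outlier spot values (3075) were dropped, and log2 values of the deposited signal were averaged per probe after subtracting each array's 75th percentile (1530 to 1628 in processed signal) over 58717 non-control spots. Testing a probe required over 0.5 of its spots well above background on every array of a group (20658 of 30367). The files give transcript accessions rather than symbols, so members were found by matching accessions to RefSeq genes: 18005 probes and 13090 tested probes had a symbol. Probe design and gene list differ in build, so no gene positions are given. Groups were compared with limma 3.58.1 in R 4.3.3 (lmFit, eBayes, two-sided, Benjamini-Hochberg over all tested probes, threshold 0.05), which was also tested on simulated data. The number of arrays limits the precision.

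Named P450 genes were Cyp2c11, every called member, the 6 brightest members and members with a described role in brain or in steroid, retinoid or vitamin D metabolism. Of each partner list, up to 4 called genes with the widest differences were named, with Por, Fdx1, Fdxr, Ahr and Arnt. A gene that this rule names is not reported here. The members and lists were chosen with earlier results of these data known, so no list was tested as a set. Replicate numbers were given in accession order.

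The alternatives replaced the normalisation (quantile, median shift, or the deposited table), the background correction (normexp, offset 50, then quantile), the filter (none, or all 6 arrays), the outlier flags (ignored), the variance model (trended and robust) and the choice of a gene's probe (their mean). Others added slide row, read from the headers, as a block, or left out each array in turn.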

Additional observations from a re-analysis of the deposited data

How the results depend on the processing

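The count of P450 genes called higher in SPORTS was 6, with 14 of 16 alternatives within 1.5 times of it, beside 12.9% of all tested genes. It was 1 in the fit blocked by slide row and 3 to 7 when 1 array was left out. The count called lower was 7, Cyp2c11 included, with 15 of 16 alternatives within that limit. It was 4 with the block and 5 to 7 when 1 array was left out, Cyp2c11 again included. Cyp2c11 was the reason for selecting the family, so its part in these counts is not a test. Without it, 6 genes were called lower, 3 with the block and 5 without SPORTS 1. How many of the 16 alternatives lie within the limit without Cyp2c11 was not counted. The partner genes called numbered 19, 6 with the block and 11 to 17 when 1 array was left out. The share of all genes called fell with the block too, from 12.9% to 4.03% higher and from 11.4% to 4.31% lower. The cause of these shifts was not tested, although the block leaves 1 wild type array in a row shared with SPORTS.

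Among the named P450 genes, the sign of the difference changed for 3 that no alternative called: Cyp21a1 was 0.01 without wild type 2, Cyp26b1 was -0.03 without wild type 3, -0.06 without SPORTS 1, 0.21 without SPORTS 3 and 0.27 with the block, and Cyp27b1 was 0.01 without SPORTS 2. Normexp background correction compressed dim probes: Cyp2c11 went from -3.05 to -1.14, the brighter Cyp4v3 probe from 2.10 to 0.47, Cyp1b1 to 0.36 and Cyp4f18 to -0.15. Over all tested genes, calls were 1424 higher and 1257 lower, 1213 and 1600 after a median shift, 1570 and 1194 in the deposited table, and 767 and 676 of 15168 genes without the filter on dim probes. No paired analysis was possible because the replicate numbers follow accession order and the sample titles share only 1 number between the groups. Signals near background limit the 29 P450 genes that were well above background on no array.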
